A study of Homo sapiens with 41 samples.

Results

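The genes described here are 45 that run mitosis and chromosome segregation, taken by symbol from a fixed list of kinases, checkpoint proteins, kinetochore and spindle proteins and cytokinesis factors. All 45 were listed, with a mean normalised read count of at least 10, in each of the 6 tables of the series, which share 21375 genes. The lowest mean was 42.8, that of SPC25 in A375 tumours, so no member was lost to the filter on low values.

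RNA sequencing was done on 41 samples in 15 groups. The study asked what blocking the driver oncogene does to sensitive melanoma and lung adenocarcinoma cells, and how resistant cells behave in different tumours. The melanoma lines, all human, were A375, Colo800 and UACC62, and vemurafenib inhibits the mutant BRAF kinase that drives them. The lung adenocarcinoma line was H3122, also human, and crizotinib inhibits its ALK kinase. Cultured A375 cells gave whole-cell RNA in vehicle and at 6 h and 48 h of 0.1 µM vemurafenib (n = 3 each). Colo800 and UACC62 cells had 48 h of 1 µM vemurafenib or vehicle, and H3122 cells had 48 h of 0.3 µM crizotinib or vehicle (n = 2 each). All cultures were in medium with reduced serum during treatment. The titles of the vehicle cultures give no time, and the same A375 vehicle group is the reference at 6 h and at 48 h. Where time in that medium differed between drug and vehicle, drug and time cannot be told apart. In mice, subcutaneous A375 tumours received 10 doses of 75 mg/kg vemurafenib or vehicle (n = 4 each). Tumours with the vemurafenib-resistant derivative A375R received the same drug or vehicle, in tumours read as A375R mixed with A375 cells and in tumours read as A375R alone (n = 3 each). From tumours, RNA was recovered by pulling down GFP-tagged ribosomes, so it is meant to come from the cells that carry the tag. Whether the samples of a group were separate cultures or animals is not in the labels. The p-values therefore measure only how far these samples differ, and that may be technical. Each group rests on 1 cell line, or in mixed tumours on A375 and its derivative A375R, so the results describe these lines.

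Mitosis begins when CDK1, bound to cyclin A2 or cyclin B, phosphorylates its substrates. Kinetochores then attach chromosomes to the spindle, the spindle assembly checkpoint holds the anaphase-promoting complex back until all are attached, and that complex then has cyclin B and securin destroyed. Most of these genes are transcribed in G2 and mitosis and are low in resting cells, so their summed RNA is a usual index of proliferation. In bulk RNA, fewer dividing cells and less RNA per dividing cell cannot be told apart. Their promoters often carry a cell cycle genes homology region (CHR), known to be bound by the MuvB complexes with B-MYB and FOXM1 or with the repressor p130, and CCAAT boxes, known to be bound by NF-Y.

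To show what the promoters of the most and the least affected members look like, 6 are printed. They were chosen by the median log2 change after 48 h of drug over the 4 cultured lines, the 3 most negative and the 3 least negative with an entry, so their order is a description. The medians were -4.13 for SPC25, -3.76 for MKI67, -3.64 for AURKB, -1.58 for INCENP, -1.24 for CKAP2 and -0.91 for CDC25B. Each stretch runs from 200 bases before to 20 bases after the start of transcription, 5′ to 3′ on the gene's strand, from RefSeq on GRCh38.p14. Capitals mark the CHR core (TTTGAA or TTCGAA) and the CCAAT box, each searched on both strands, so that CCAAT can appear as ATTGG.
SPC25, chr2:168890411-168890630, minus strand: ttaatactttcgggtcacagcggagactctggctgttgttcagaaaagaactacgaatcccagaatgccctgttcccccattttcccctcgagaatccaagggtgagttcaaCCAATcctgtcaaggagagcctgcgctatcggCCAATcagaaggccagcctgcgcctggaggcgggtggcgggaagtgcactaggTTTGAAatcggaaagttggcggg
MKI67, chr10:128126404-128126623, minus strand: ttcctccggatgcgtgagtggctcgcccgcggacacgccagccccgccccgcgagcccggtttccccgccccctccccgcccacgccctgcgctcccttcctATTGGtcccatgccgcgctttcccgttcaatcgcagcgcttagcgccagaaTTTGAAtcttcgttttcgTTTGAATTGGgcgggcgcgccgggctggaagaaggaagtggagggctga
AURKB, chr17:8210206-8210425, minus strand: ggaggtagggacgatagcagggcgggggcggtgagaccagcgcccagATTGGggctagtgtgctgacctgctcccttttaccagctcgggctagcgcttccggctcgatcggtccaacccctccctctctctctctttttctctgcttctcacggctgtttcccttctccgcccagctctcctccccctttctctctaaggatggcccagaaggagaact
INCENP, chr11:62123811-62124030, plus strand: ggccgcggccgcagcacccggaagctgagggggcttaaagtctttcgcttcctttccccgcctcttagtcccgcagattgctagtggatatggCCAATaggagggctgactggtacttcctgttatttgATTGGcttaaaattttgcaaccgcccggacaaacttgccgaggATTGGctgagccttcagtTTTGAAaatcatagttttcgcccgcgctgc
CKAP2, chr13:52455788-52456007, plus strand: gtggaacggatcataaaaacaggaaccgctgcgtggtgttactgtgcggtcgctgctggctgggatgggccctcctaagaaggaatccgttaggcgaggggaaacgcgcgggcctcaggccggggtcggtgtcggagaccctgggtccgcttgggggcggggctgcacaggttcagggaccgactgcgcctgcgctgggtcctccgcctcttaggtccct
CDC25B, chr20:3786751-3786970, plus strand: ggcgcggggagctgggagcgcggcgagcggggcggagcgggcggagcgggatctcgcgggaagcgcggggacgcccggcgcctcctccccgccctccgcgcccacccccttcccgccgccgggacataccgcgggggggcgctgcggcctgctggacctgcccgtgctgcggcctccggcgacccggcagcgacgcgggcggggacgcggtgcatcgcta

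SPC25 holds a CHR core that begins 3 bases before the start and runs across it, with CCAAT boxes 88 and 56 bases before the start. Another SPC25 core, 247 bases before the start, lies outside the printed stretch. MKI67 holds CHR cores 47 and 29 bases before the start, and its ATTGG 24 bases before the start overlaps the nearer core by 1 base. INCENP, among the least affected, also holds a CHR core and 3 CCAAT boxes, whereas AURKB, among the most affected, holds 1 ATTGG and no CHR core in either of its 2 listed windows. CKAP2 holds neither motif in its window. CDC25B has 4 listed windows, of which the one printed is the first and holds neither, and 1 of the other windows holds a CHR core. Over 300-base windows from 250 before to 50 after the start, 38 of the 45 members matched the table, and a CHR core was found for 29 of these 38 genes (76.3%), for 47 of 91 other mitosis genes (51.6%), for 2 of 30 DNA replication genes (6.67%) and for 19.5% of all 27305 genes. A CCAAT box was found for 31 of the 38 (81.6%), for 52 of the 91 (57.1%), for 18 of the 30 (60%) and for 39.7% of all genes. A match is a run of letters and not a measured binding site.

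The libraries held 8063754 to 42843612 recovered reads, with the A375R tumours deepest. The tables were normalised separately, so tests were made within a table only, with limma on log2(value + 1) and Benjamini-Hochberg adjustment over all its genes with a mean of at least 10. Changes are tested at an adjusted p under 0.05 and given as log2 ± SE on that scale, where genes with low counts change by less than in reads. The labels' cell types were checked against marker genes. Pigment-cell markers reached a mean of 10 for 7 of 7 in both Colo800 groups, 7 of 7 in treated and 6 of 7 in vehicle UACC62 cells, but for 3 of 7 in vehicle A375 cells, led by SOX10. In A375R tumours 2 or 3 of these 7 did, and TYR was at 0 in all 12 libraries. Of 9 lung epithelium markers, 6 did in crizotinib H3122 cells and 7 in vehicle H3122 cells. DUSP6, a phosphatase induced by ERK signalling, averaged 2792.9 ± 1100.2 in vehicle, 408 ± 119 at 6 h and 769 ± 60.1 at 48 h in A375 culture (SD, n = 3 each).

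In A375 cells no mitotic gene passed the test after 6 h of drug, when DUSP6 was already low, and nearly all fell by 48 h. At 6 h, 0 of 45 members passed in limma, against 4.40% of all genes, and 0 had an unadjusted p under 0.05, against 17.4% of all genes. DESeq2 and edgeR also called 0 at 6 h. Changes ranged from -0.28 ± 0.42 for SPC25 to 0.45 ± 0.21 for CKAP2 (adjusted p = 0.292). Of the 45, 36 lay above 0 with a median of 0.17. Without 6 h replicate 1 only 15 did (median -0.07), and without vehicle replicate 1 42 did (median 0.37). Leaving out each of the other libraries of these groups gave 28 to 41. Replicate numbers pair these groups, so leaving out 1 library breaks a pair. By number, the median member lay 0.63, 0.01 and -0.15 from the vehicle mean at 6 h, against 0.40, -0.13 and -0.27 in vehicle. The libraries of every member overlapped between the groups, whereas 11.9% of all genes had every 6 h library lower and 9.63% every one higher. The median SE was 0.24 without a replicate block. With the block, which the numbers of these groups allow, 0 members passed too (lowest adjusted p = 0.051), and 4 had an unadjusted p under 0.05, all higher. At 6 h the D-type cyclin gene CCND1, a target of ERK signalling that acts upstream in G1, had fallen (-2.46 ± 0.32, adjusted p = 0.00149).

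At 48 h 44 of 45 members fell, where 25.6% of all genes did, and in all 44 every drug library lay below every vehicle library, as it did for 30.2% of all genes. The median change was -2.72, against -0.00 over all genes, and 42 members fell at least 2-fold, where 10.9% of all genes did. CDK1, the kinase that starts mitosis, had 2388, 1462 and 1431 normalised counts in vehicle, 2420, 1454 and 1315 at 6 h, and 150.5, 202 and 247 at 48 h. The 48 h libraries stood far below the rest and the 6 h and vehicle libraries overlapped, and the 48 h change was -3.12 ± 0.27 (adjusted p = 1.2e-05). PLK1, the kinase that matures centrosomes and drives mitotic entry, had 2447, 1715 and 1734 in vehicle, 2316, 1865 and 1801 at 6 h, and 204, 239.6 and 242 at 48 h, a change at 48 h of -3.08 ± 0.16 (adjusted p = 8.55e-07). The transcription factor FOXM1, which activates many of these genes, fell by 2.54 ± 0.16 (adjusted p = 1.89e-06).

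The fall at 48 h ran through every role, with the level left given as a share of the vehicle mean. Of the 10 entry kinases, cyclins and FOXM1, 9 fell, and CDC25C, a phosphatase that activates CDK1, was among the largest falls (-3.42 ± 0.31, adjusted p = 1.62e-05). The 6 centromere and kinetochore genes kept 8.32% to 17.3% of their vehicle level, and SPC25, a subunit of the NDC80 complex that binds microtubules, had the largest fall. SPC25 had 6.62, 7.23 and 18.8 counts at 48 h, against 190.0, 98.7 and 103.5 in vehicle (-3.55 ± 0.42, adjusted p = 6.97e-05). In the chromosomal passenger complex, the kinase AURKB had 71.1, 103 and 118 at 48 h, against 1152, 679 and 804.5 in vehicle (-3.15 ± 0.24). Its scaffold INCENP fell less, with 443, 439 and 558 at 48 h, against 1905, 1469.7 and 1337 in vehicle (-1.70 ± 0.17, adjusted p = 2.66e-05). Both genes were without overlap, but INCENP kept 30.6% of its level and AURKB 11.1%. The 9 spindle genes kept 13.6% to 52%, the 5 central spindle and cytokinesis genes 13.3% to 28.5%, and the 4 genes of chromatid separation 9.54% to 21.3%. Among the last, the ubiquitin-conjugating enzyme UBE2C had 93.5, 130.1 and 171 at 48 h, against 1709.8, 1164 and 1265 in vehicle (-3.40 ± 0.22, adjusted p = 2.45e-06). The proliferation marker MKI67 had 324, 243 and 401 at 48 h, against 4384, 2788.5 and 2211 in vehicle (-3.24 ± 0.30, adjusted p = 1.82e-05).

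CDC25B, BUB3 and CKAP2 stood apart at 48 h in A375 cells. CDC25B, the phosphatase that acts at the G2 to mitosis switch, had 1183.5, 2524 and 2467 at 48 h, against 2417, 2516 and 2929 in vehicle. Its groups overlapped and its change did not pass the test (-0.42 ± 0.24, adjusted p = 0.17). The checkpoint protein BUB3, which also works outside mitosis, had 1432, 1786.5 and 1644 at 48 h, against 3292.5, 2587 and 2746.5 in vehicle (-0.82 ± 0.13, adjusted p = 0.000367). The microtubule-associated CKAP2 had 746, 663 and 719 at 48 h, against 1775, 1267 and 1054 in vehicle (-0.91 ± 0.21, adjusted p = 0.00394). These were the smallest falls, and the other 4 checkpoint genes, BUB1, BUB1B, MAD2L1 and TTK, changed by -3.08 to -2.59.

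Replicate numbers paired the A375 libraries of 6 h with those of vehicle and of 48 h, while 48 h and vehicle fell short at replicate 2. Replicate 1 was high in the mitotic genes in both vehicle and 6 h. Its median member lay 0.40 and 0.63 above the vehicle mean in vehicle and 6 h, against -0.13 and -0.27 for the other vehicle libraries and 0.01 and -0.15 for the other 6 h libraries. The 48 h libraries lay at -2.79, -2.84 and -2.50, far from this spread. Against 6 h, which shares the 48 h libraries with the comparison above, 44 members were lower at 48 h where 19.7% of all genes were, with a median of -2.95. CDC25B again missed the test (-0.52 ± 0.24, adjusted p = 0.115) and passed with the replicate as a block, which gave 45 of 45.

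**Figure D1:**
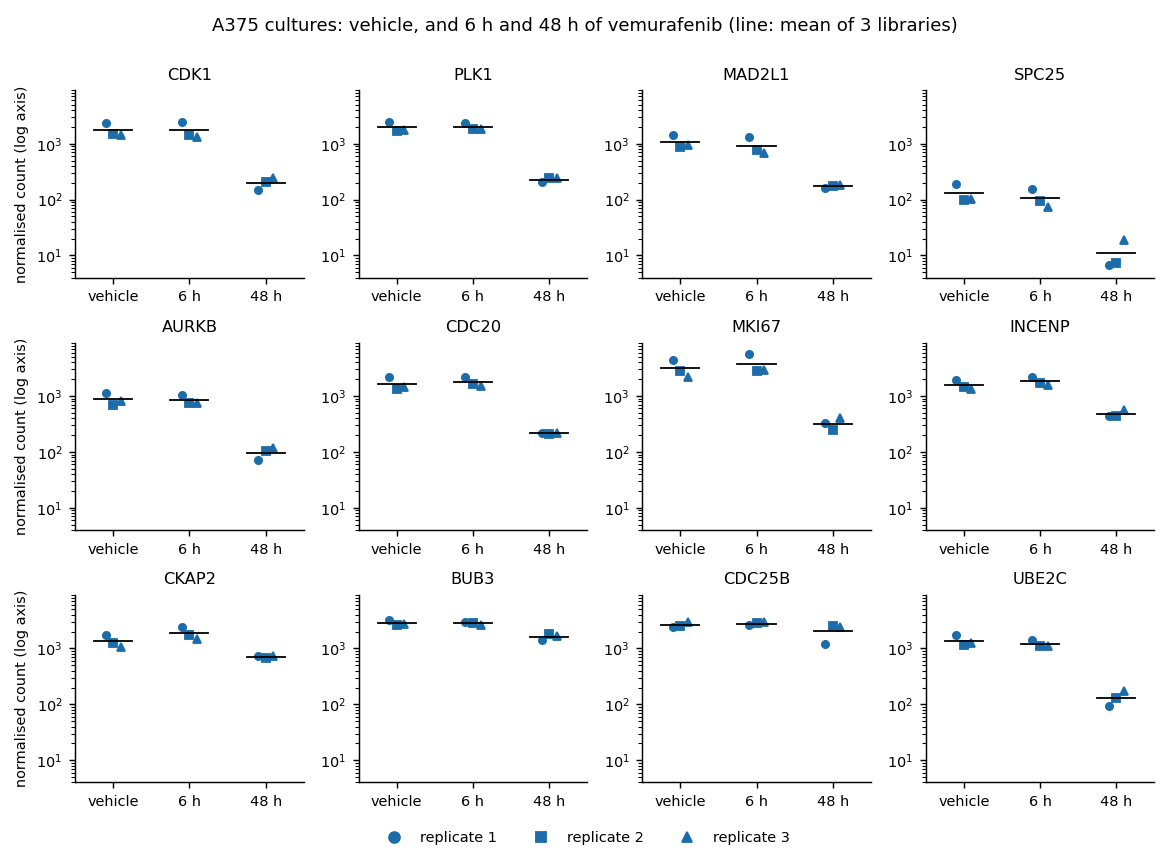
Normalised counts (log axis) of 12 mitotic genes in cultured A375 cells in vehicle and after 6 h and 48 h of vemurafenib. Symbols are the 3 replicates by number and short horizontal lines mark the group means. CDK1 stays between 1315 and 2420 in vehicle and at 6 h and lies between 150.5 and 247 at 48 h, while the 48 h libraries of CDC25B overlap those of vehicle.

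In Colo800 cells, 48 h of vemurafenib at 1 µM lowered the whole set. All 45 members fell, where 37.3% of all genes did, with a median of -3.13, and in all 45 the libraries did not overlap, as for 43.1% of genes in this direction. SPC25 had 15.2 and 17.3 counts in treated cells, against 446 and 449.8 in vehicle cells (-4.71 ± 0.15, adjusted p = 4.45e-15). MKI67 had 147 and 171 in treated cells, against 3287 and 2925 in vehicle cells (-4.28 ± 0.07, adjusted p = 4.46e-19). TOP2A, the topoisomerase that untangles sister chromatids, had 502 and 517 in treated cells, against 7381 and 7401 in vehicle cells. SPC25, MKI67 and TOP2A kept 3.62%, 5.11% and 6.89% of their vehicle level. AURKB kept 5.65%, with 57.7 and 59.4 in treated cells, against 1045 and 1028.5 in vehicle cells. The smallest falls were again BUB3 (1018 and 1026 in treated cells, against 1600.3 and 1592 in vehicle cells, -0.64 ± 0.05, adjusted p = 6.54e-10) and CDC25B (1817 and 1841 in treated cells, against 3848 and 3920.0 in vehicle cells, -1.09 ± 0.04, adjusted p = 3.61e-14). INCENP and CKAP2 followed, at -1.45 ± 0.06 and -1.56 ± 0.04. The 45 genes together made up 0.0912% and 0.0932% of all normalised counts in the treated libraries, against 0.56% and 0.563% in the vehicle libraries.

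UACC62 cells lost these transcripts to the point where several were barely counted. All 45 members fell, where 29.6% of all genes did, with a median of -5.18, and none overlapped, as for 40.2% of genes in this direction. The 45 genes made up 0.028% and 0.0286% of counts in treated libraries, against 0.364% and 0.372% in vehicle libraries. MKI67 had 1.04 and 3 counts in treated cells, against 1127 and 1089.9 in vehicle cells, which is 4 reads against 2277 reads in all. The ratio was 546-fold lower, with an exact 95% counting interval of 213 to 2004.3, and limma gave -8.60 ± 0.30 (adjusted p = 1.25e-07). Such intervals cover counting error only. DLGAP5, a protein of the spindle fibres, had 7 reads against 2260 (309-fold lower, 150 to 771), and UBE2C had 4 against 1344 (322-fold lower, 125 to 1183.7). SPC25 had 1 read against 372 (357-fold lower, 63.6 to 14121.1), with none in 1 treated library. In all, 6 members, CDC25C, NEK2, SPC25, DLGAP5, UBE2C and MKI67, had 3 reads or fewer in a treated library, so the exact size of their fall is not fixed at this depth.

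Between these extremes, CDC20, the activator of the anaphase-promoting complex, had 8.28 and 5.00 counts in treated UACC62 cells, against 1248.5 and 1178.5 in vehicle cells (-7.35 ± 0.22, adjusted p = 6.66e-08). Securin, PTTG1, the inhibitor of separase, had 83.9 and 74.9 in treated cells, against 1015 and 938 in vehicle cells (-3.61 ± 0.13). CENPF, a kinetochore protein, had 157 and 223 in treated cells, against 2282 and 2316 in vehicle cells, the smallest fall of the 6 centromere and kinetochore genes (-3.61 ± 0.16). FOXM1 had 85.9 and 81.9 in treated cells, against 683 and 654 in vehicle cells (-2.98 ± 0.12, adjusted p = 2.98e-07). BUB3 (650.2 and 675 in treated cells, against 1126.5 and 1094 in vehicle cells, -0.74 ± 0.10, adjusted p = 0.000263) and CDC25B (1030.1 and 904 in treated cells, against 1649 and 1654 in vehicle cells, -0.77 ± 0.10, adjusted p = 0.000275) fell least once more.

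The order of the falls was alike in part between the melanoma cultures. BUB3, CDC25B and CKAP2 were among the 5 smallest falls in A375, Colo800, UACC62 and the A375 tumours described next. Over the 45 genes, the Spearman correlation of the log2 changes was 0.64 between A375 and UACC62, 0.46 between A375 and Colo800 and 0.52 between Colo800 and UACC62. Genes are not independent replicates, so these are descriptions. Doses differed between A375 and the other lines, and the sizes of the falls are therefore set side by side and not tested against each other.

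The remaining members fell in all 3 lines in every role, and each log2 change given for them passed the test. CCNB1, the cyclin B1 partner of CDK1, had 368, 457.5 and 474 counts at 48 h in A375 cells, against 2837, 2252 and 2255 in vehicle cells, and 90.1 and 72.9 in treated UACC62 cells, against 1870.4 and 1804 in vehicle UACC62 cells. In both lines its groups were far apart, with changes of -2.50 ± 0.15 and -4.49 ± 0.13. CCNA2, cyclin A2, changed by -2.68 in A375 and -3.33 in Colo800 cells, and it fell in UACC62 cells too. The centrosomal kinases AURKA and NEK2 lay at -3.62 and -6.36 in UACC62, at -2.18 and -2.93 in A375 and at -2.21 and -2.60 in Colo800. Among checkpoint genes, the kinase BUB1 had 79.4, 111.5 and 117 at 48 h in A375 cells, against 958, 724.5 and 548 in vehicle cells, and 32.1 and 29.97 in treated UACC62 cells, against 1284.5 and 1184 in vehicle UACC62 cells. BUB1B and TTK, also of the checkpoint, changed by -6.56 and -6.59 in UACC62 cells, and MAD2L1 by -3.51. So the checkpoint set spans from these falls to the -0.74 of BUB3.

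At the centromere, the histone H3 variant CENPA had 33.1, 43.4 and 71.8 counts at 48 h in A375 cells, against 447, 303 and 303 in vehicle cells, and 5.18 and 5.00 in treated UACC62 cells, against 301 and 280.5 in vehicle UACC62 cells. No CENPA library of a drug group reached a vehicle library, and the changes were -2.85 ± 0.32 in A375 and -5.58 ± 0.21 in UACC62 cells. NDC80 changed by -2.62, -3.56 and -5.73 in A375, Colo800 and UACC62 cells, its partner NUF2 by -3.26, -3.24 and -5.93, and the motor CENPE by -2.48, -3.65 and -5.94. In the passenger complex, survivin, BIRC5, changed by -2.92, -3.25 and -6.64 in A375, Colo800 and UACC62 cells, and borealin, CDCA8, by -2.74, -3.02 and -4.60. TPX2, the activator of AURKA on the spindle, had 376, 489.5 and 569.8 at 48 h in A375 cells, against 2900.0, 2452 and 2199 in vehicle cells, a change of -2.40 ± 0.17. The bipolar spindle motor KIF11 changed by -2.40, -3.55 and -4.17 in A375, Colo800 and UACC62 cells, and KIF2C and KIF4A by -2.67 each in A375 and by -7.16 and -5.77 in UACC62. ASPM, which focuses spindle poles, changed by -2.73, -3.62 and -5.12 in the 3 lines.

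Among the cytokinesis genes, the kinesin KIF20A had 244.0, 182 and 255 counts at 48 h in A375 cells, against 1510.3, 1169 and 912 in vehicle cells, and 21.7 and 34.0 in treated UACC62 cells, against 1273 and 1264 in vehicle UACC62 cells. The groups lay apart in both lines, with changes of -2.38 ± 0.26 and -5.49 ± 0.20. PRC1, which bundles the central spindle, changed by -2.84, -3.17 and -4.40 in A375, Colo800 and UACC62 cells, its partner KIF23 by -2.88, -3.34 and -4.61, and anillin, ANLN, by -2.43, -3.68 and -5.64. ECT2, the exchange factor that activates RhoA at the cleavage furrow, fell least of the 5, at -1.75, -2.40 and -3.06. Separase, ESPL1, which cuts cohesin, changed by -2.98, -3.67 and -5.18, and its inhibitor PTTG1 by -2.23, -2.52 and -3.61 in the same lines.

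**Figure D2:**
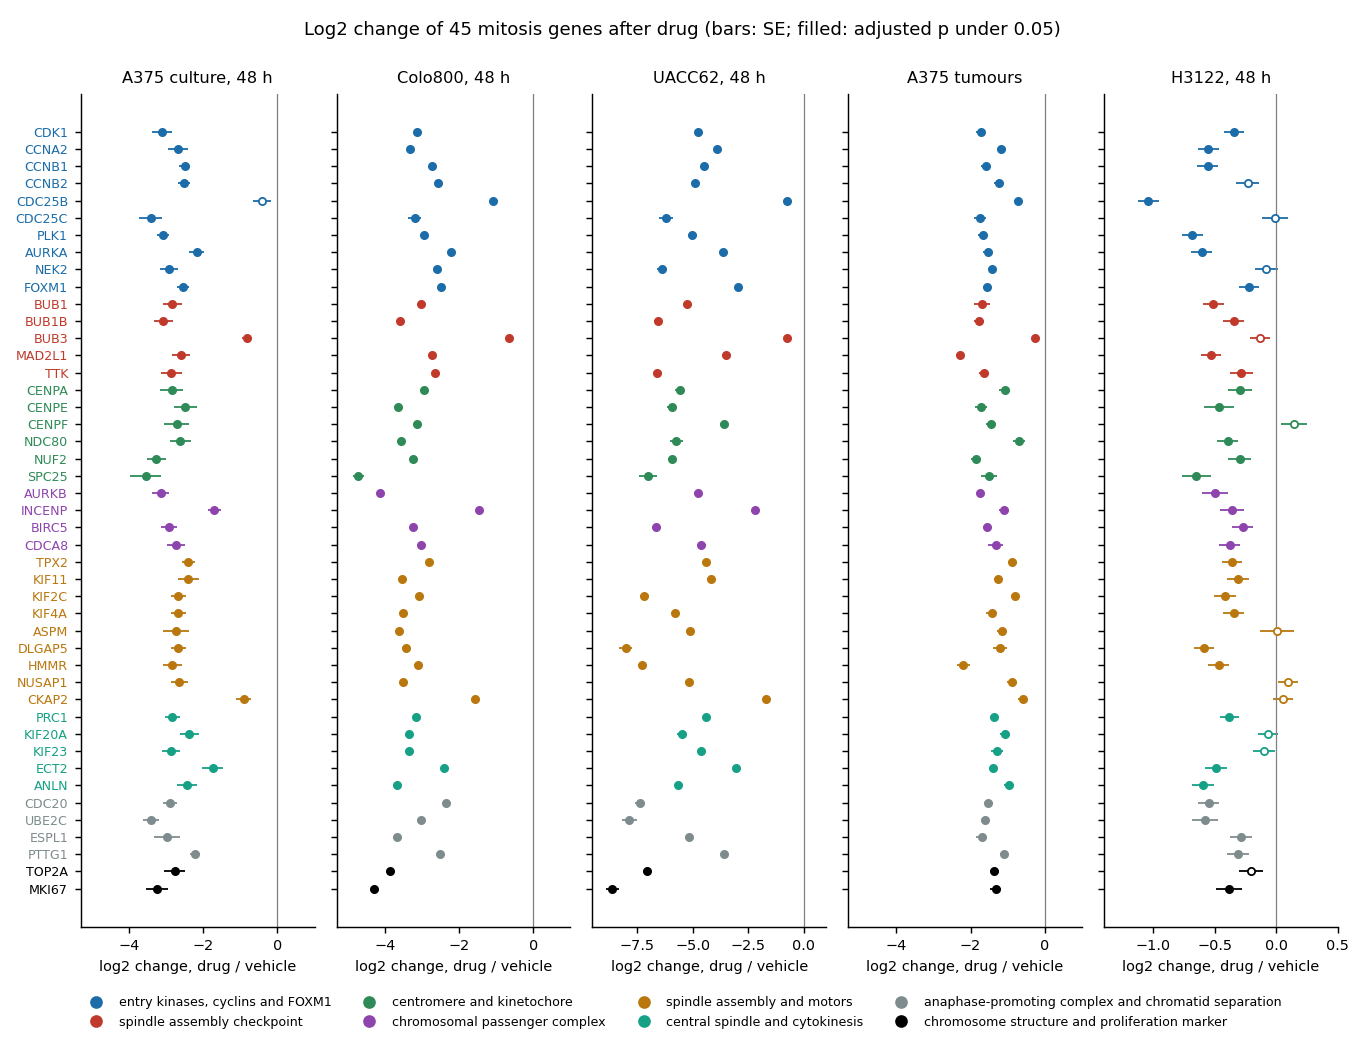
Log2 change, drug over vehicle, of each of the 45 genes (rows, coloured by role) in 5 comparisons, with bars for the SE and filled points for adjusted p under 0.05. The horizontal scale differs between panels, being widest for UACC62 and narrowest for H3122. BUB3 and CDC25B lie nearest to 0 in the panels of cultured melanoma cells, and CDC25B has the most negative value in H3122 (-1.04).

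In A375 tumours the whole set fell too, and the checkpoint gene MAD2L1 fell most. After 10 doses of vemurafenib, all 45 members were lower than in vehicle tumours, where 34.0% of all genes were, with a median of -1.39. In 44 of 45 the libraries did not overlap, as for 30.2% of genes in this direction, and 37 fell at least 2-fold, where 10.6% of all genes did. Of these, MAD2L1 and HMMR fell at least 4-fold. MAD2L1, the checkpoint protein that binds CDC20, had 195, 178, 242.5 and 223 counts in vemurafenib tumours, against 1059.9, 1099, 981 and 953 in vehicle tumours (-2.29 ± 0.10, adjusted p = 5.62e-12). HMMR, a spindle-associated hyaluronan receptor, had 56.5, 39.6, 65.9 and 39.9 in vemurafenib tumours, against 213, 252, 272 and 189 in vehicle tumours (-2.20 ± 0.17, adjusted p = 8.8e-09). Both were several-fold lower in every treated library. CDK1 had 239, 141, 211 and 202 in vemurafenib tumours, against 681.5, 673, 603 and 640.4 in vehicle tumours (-1.73 ± 0.13, adjusted p = 4.23e-09).

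The smallest falls in the tumours were those of BUB3, CKAP2, NDC80 and CDC25B. BUB3 had 1927, 1569.6, 1512 and 1564 in vemurafenib tumours, against 1988, 1973, 1782 and 2093 in vehicle tumours (-0.26 ± 0.08, adjusted p = 0.0123), and was the 1 member whose groups overlapped. CKAP2 had 434, 367.5, 410.5 and 431 in vemurafenib tumours, against 638, 716, 688 and 480.3 in vehicle tumours (-0.60 ± 0.11, adjusted p = 0.000153). NDC80, a core kinetochore protein, fell by 0.69 ± 0.16 (adjusted p = 0.00126), while its partner NUF2 fell by 1.85 ± 0.13 (adjusted p = 2.1e-09). The 45 genes made up 0.0702% to 0.0953% of counts in vemurafenib tumours, against 0.214% to 0.243% in vehicle tumours. Across the 45 genes the tumour changes correlated with those of A375 culture at a Spearman coefficient of 0.60, with Colo800 at 0.17 and with UACC62 at 0.29.

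Marker genes of cell types moved between the A375 tumour groups as well, and their part in the result was not tested. The summed pigment-cell markers were 6972.9 to 8228.6 in vemurafenib tumours and 743 to 1144.6 in vehicle tumours, almost all of it SOX10, with TYR and DCT at 0 in vehicle. The summed fibroblast markers were 845 to 1014.2 in vemurafenib tumours and 1126.6 to 1554.9 in vehicle tumours, with 6 of 7 at a mean of 10 or more in both. The summed leukocyte markers were 661 to 1038.5 in vemurafenib tumours and 624 to 822 in vehicle tumours, mostly CD68, with CD3E at 0 in vemurafenib tumours. The summed markers of blood, skin and muscle were 132 to 244 in vemurafenib tumours, led by the keratin KRT14, and 37.2 to 49.7 in vehicle tumours, led by the myosin MYH1. Pigment-cell, fibroblast and blood, skin and muscle sums did not overlap between the groups. No source used here says how reads of mouse cells were treated.

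In H3122 cells most members fell by small amounts, and CDC25B fell most. After 48 h of crizotinib, 34 of 45 members fell and 0 rose, where 24.0% of all genes fell and 22.1% rose, with a median of -0.36 against -0.01 over all genes. In 39 members all crizotinib libraries were lower and in 2 all were higher, as for 37.7% and 35.9% of all genes. CDC25B, among the smallest falls in the melanoma lines, fell most, with 867 and 894.5 counts in crizotinib cells, against 1738 and 1888.5 in vehicle cells (-1.04 ± 0.09, adjusted p = 2.15e-06). It was the 1 member with a fall of at least 2-fold, as 4.23% of all genes had. PLK1 had 1248 and 1185 in crizotinib cells, against 1885 and 2019.6 in vehicle cells (-0.68 ± 0.08, adjusted p = 5.71e-05). SPC25 had 216.5 and 195 in crizotinib cells, against 314 and 333 in vehicle cells (-0.65 ± 0.12, adjusted p = 0.000853). CDK1 fell by 0.34 ± 0.08 (adjusted p = 0.00398), with 2023 and 2059 in crizotinib cells and 2603 and 2582 in vehicle cells. DUSP6 averaged 2111.9 in crizotinib cells and 14250.8 in vehicle cells.

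The 11 members that did not pass in H3122 were CCNB2, CDC25C, NEK2, BUB3, CENPF, ASPM, NUSAP1, CKAP2, KIF20A, KIF23 and TOP2A. CENPF had 3062 and 3680.5 in crizotinib cells, against 3228 and 2858 in vehicle cells (0.14 ± 0.10, adjusted p = 0.267). NUSAP1, which bundles spindle microtubules, had 2681.5 and 2622 in crizotinib cells, against 2520.1 and 2444 in vehicle cells (0.10 ± 0.08, adjusted p = 0.347). CKAP2 had 2413 and 2418 in crizotinib cells, against 2379 and 2274.0 in vehicle cells (0.05 ± 0.08, adjusted p = 0.605), and ASPM lay at 0.01 ± 0.14. CENPF and NUSAP1 passed as higher under quantile normalisation, and CENPF and ASPM without vehicle replicate 1, while ASPM passed as lower without vehicle replicate 2. The count of falls was 18 without crizotinib replicate 1 and 22 without crizotinib replicate 2, and 17 of the 34 calls held under every alternative. Leaving out a library leaves 1 in its group, so the spread then comes from the other group alone and the lone library is assumed to vary like it. Over the 45 genes, the Spearman correlation of the H3122 changes was 0.00 with A375 culture, -0.03 with Colo800 and 0.11 with UACC62. The 45 genes made up 0.557% and 0.592% of counts in crizotinib cells, against 0.646% and 0.677% in vehicle cells.

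**Figure D3:**
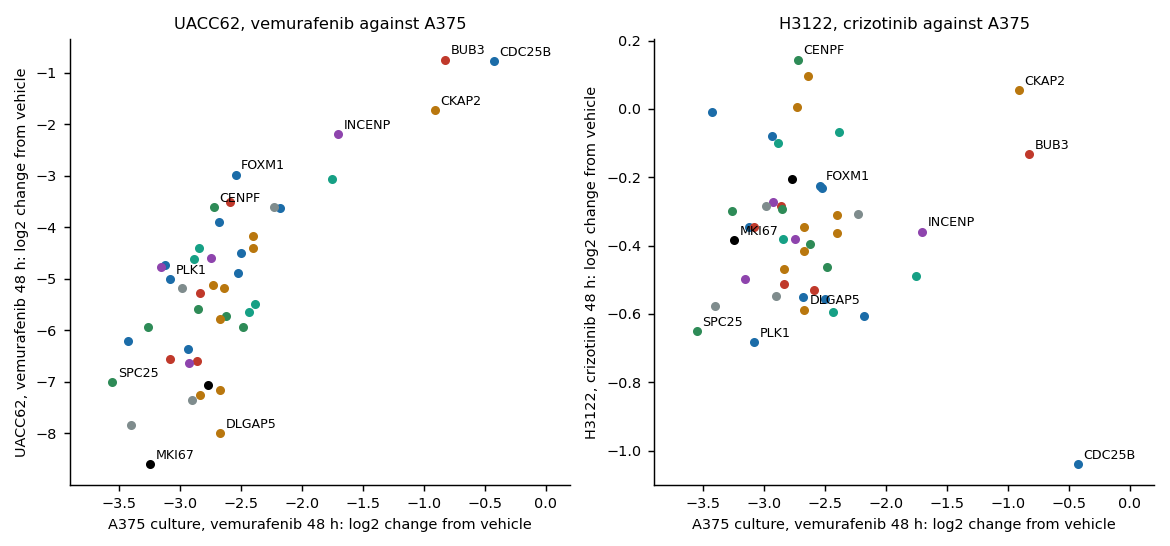
Log2 changes of the 45 genes in A375 culture at 48 h (horizontal) against those in UACC62 (left) and H3122 (right), each point a gene coloured by role, with 10 genes named. Genes with small falls in A375 also fall little in UACC62 (Spearman 0.64), whereas in H3122 the values do not follow A375 (Spearman 0.00) and CDC25B lies lowest.

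In tumours of A375R cells alone, every mitotic gene had a higher fitted value under vemurafenib, but only SPC25 passed the test. SPC25 was the 1 member that rose (0.71 ± 0.14, adjusted p = 0.0282), where 0.305% of all genes did, with 399, 363 and 302.5 counts in vemurafenib tumours, against 217, 222 and 205 in vehicle tumours. All 45 changes lay above 0, where 51.9% of those of all genes did, and the median was 0.33, against 0.01 over all genes. An unadjusted p under 0.05 was reached by 25 members, all higher, and by 18.4% of all genes in either direction. In 9 members all vemurafenib libraries were higher, as for 13.1% of all genes. CDK1 had 2337, 1921 and 1461 in vemurafenib tumours, against 1459, 1132 and 1229.7 in vehicle tumours (0.56 ± 0.14, adjusted p = 0.0661). MKI67 had 1329.6, 1334 and 1022 in vemurafenib tumours, against 875, 831 and 819 in vehicle tumours (0.54 ± 0.17, adjusted p = 0.108). FOXM1 had 12698, 9752 and 9562 in vemurafenib tumours, against 7406, 8055 and 7185 in vehicle tumours (0.49 ± 0.13, adjusted p = 0.0737). In SPC25, MKI67, FOXM1 and CDK1 alike every drug library was higher. CENPE, a kinetochore motor, had the smallest value (0.04 ± 0.19), followed by CKAP2 (0.09 ± 0.12).

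The count of calls in these tumours turned on single libraries. The median member lay 0.55, 0.31 and 0.07 above the vehicle mean in vemurafenib replicates 1, 2 and 3, against 0.17, -0.07 and -0.10 in the vehicle replicates. Without vemurafenib replicate 3 the count was 13, among them CDK1, PLK1, FOXM1, AURKB and TOP2A, and without any other library of the pair it was 0. DESeq2 on the recovered reads called 12 members, and the fit of the 2 groups alone called 3, all higher. Marker sums moved too, and their part in the result was not tested. Fibroblast markers summed to 2527.7 to 3347.0 in vemurafenib tumours and 1287.7 to 1541.2 in vehicle tumours, with 6 of 7 at a mean of 10 or more. Leukocyte markers summed to 3844.5 to 5998.9 in vemurafenib tumours and 7578.8 to 9759.1 in vehicle tumours, mostly CD68. Lung epithelium markers, led by KRT7, summed to 1074.9 to 2219.2 in vemurafenib tumours and 854 to 1051.7 in vehicle tumours. None of these 3 sums overlapped between the groups. DUSP6 averaged 3437.6 ± 628 in vemurafenib tumours and 4487.8 ± 537 in vehicle tumours (SD, n = 3 each).

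In tumours of A375R mixed with A375 cells, no mitotic gene passed the test. Under vemurafenib against vehicle, 0 of 45 members passed the limma test, where 3.48% of all genes did, and 0 had an unadjusted p under 0.05, against 20.1% of all genes. Both edgeR and DESeq2 also called 0. The median was -0.08 (0.02 without mixed vemurafenib replicate 3), with values from -0.32 ± 0.17 for MKI67 (adjusted p = 0.294) to 0.28 ± 0.14 for the cyclin CCNB2 (adjusted p = 0.29). MKI67 had 1145, 913.5 and 758.5 in mixed vemurafenib tumours, against 1435, 1189.7 and 902.5 in mixed vehicle tumours. SPC25 had 253, 235 and 195 in mixed vemurafenib tumours, against 249.5, 245 and 230.5 in mixed vehicle tumours. CDK1 had 1446, 1512 and 1363 in mixed vemurafenib tumours, against 1437, 1578 and 1364 in mixed vehicle tumours. In all 3 genes the groups overlapped. Leukocyte markers summed to 5115.2 to 8301.3 in mixed vemurafenib tumours and 3412.2 to 5054.5 in mixed vehicle tumours, mostly CD68. Fibroblast markers summed to 2971.8 to 3218.1 in mixed vemurafenib tumours and 1236.3 to 2081.7 in mixed vehicle tumours. Pigment-cell markers summed to 573 to 720 in mixed vemurafenib tumours and 926 to 1390.5 in mixed vehicle tumours. Lung epithelium markers, again led by KRT7, summed to 1097.9 to 1686.7 in mixed vemurafenib tumours and 758 to 1047.7 in mixed vehicle tumours. Those of blood, skin and muscle, led by ACTA1, summed to 328 to 393 in mixed vemurafenib tumours and 121 to 297 in mixed vehicle tumours. None of these 5 sums overlapped between the groups. Their part in the result was not tested.

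The drug response in mixed tumours minus that in tumours of A375R alone was tested as an interaction, which uses all 12 libraries. SPC25 was the 1 member that passed (-0.81 ± 0.20, adjusted p = 0.0398), where 0.974% of all genes passed as lower. MKI67 had the largest difference (-0.85 ± 0.23, adjusted p = 0.0573), 18 members had an unadjusted p under 0.05, against 18.9% of all genes, and 44 of 45 differences lay below 0, with a median of -0.39 against -0.02 over all genes. CCNB2 lay above 0 (0.06 ± 0.20), and CKAP2 at -0.00 ± 0.17. The SPC25 call was lost without each of 8 of the 12 libraries and held without alone vemurafenib replicate 3, mixed vehicle replicates 2 and 3 and mixed vemurafenib replicate 1, the count reaching 5 without the first of these. Mixed against alone tumours gave 0 calls under vemurafenib, where 0.240% of all genes passed. Of the members, 13 had an unadjusted p under 0.05, all lower, against 12.4% of all genes, and SPC25 lay at -0.64 ± 0.14 (adjusted p = 0.0678). Under vehicle they gave 0 calls, where 3.30% of all genes passed. Here 2 members had an unadjusted p under 0.05, both higher, against 18.4% of all genes, and MKI67 lay at 0.46 ± 0.17 (adjusted p = 0.146). These comparisons share libraries with each other and are not independent. The titles of the mixed tumours join the name A375R to that of the ribosomal protein RPL10a, so A375R is read as carrying the tag. The labels' protocols do not settle this for tumours that hold both cell kinds.

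**Figure D4:**
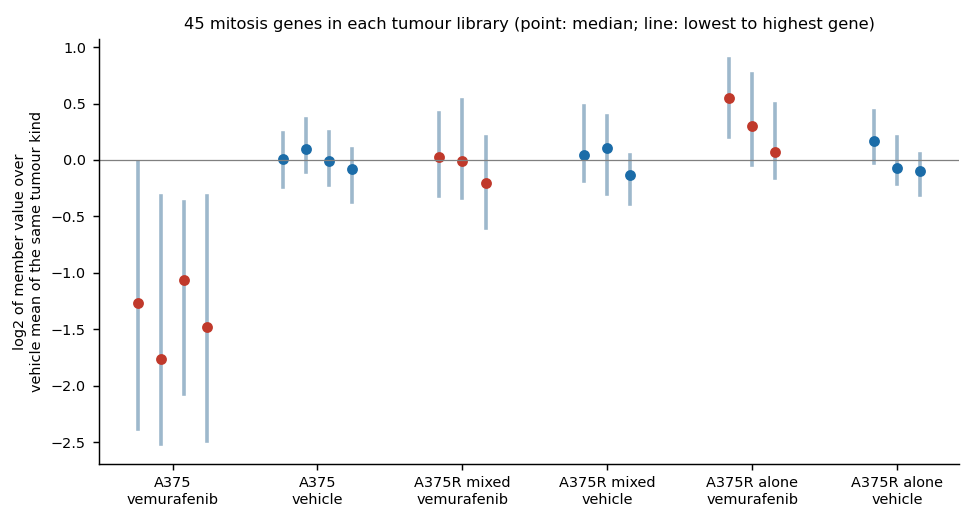
For each tumour library, the point is the median over the 45 genes of the log2 value relative to the mean of the vehicle libraries of the same tumour kind, and the line runs from the lowest to the highest gene. The A375 vemurafenib tumours lie between -1.76 and -1.06, and the A375R tumours, alone or mixed, lie between -0.21 and 0.55.

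Other mitosis genes, taken from 6 lists of 114 genes, were counted beside the 45. Of the 114, 89 were lower and 2 higher in A375 cells at 48 h (median -1.38), where 25.6% of all genes were lower and 24.3% higher. In Colo800 95 were lower and 10 higher (median -1.58), where 37.3% of all genes were lower and 36.0% higher. In UACC62 85 were lower and 3 higher (median -1.59), where 29.6% of all genes were lower and 26.9% higher. In A375 tumours 91 were lower and 6 higher (median -0.71), where 34.0% of all genes were lower and 34.2% higher. In H3122 cells 56 were lower and 6 higher (median -0.25), where 24.0% of all genes were lower and 22.1% higher. All 8 condensin genes, which compact chromosomes, were lower in A375, Colo800 and UACC62 cells. The 16 genes listed for the anaphase-promoting complex, its subunits and also FZR1, FBXO5 and UBE2S, were mixed and nearer to the shares of all genes. In A375 cells at 48 h 7 were lower and 2 higher, ANAPC5 (0.33, adjusted p = 0.0241) and ANAPC16 (0.34, adjusted p = 0.0352) being the higher ones. NUMA1, a spindle pole protein, was higher in Colo800 (0.38), in UACC62 (0.59), in H3122 (0.38) and in A375 tumours (0.40), and did not pass in A375 cells at 48 h (0.21, adjusted p = 0.221). In tumours of A375R alone, 2 of the 114 rose under vemurafenib, CENPM and TROAP, where 0.305% of all genes did. In mixed tumours 1 passed, HAUS4, a subunit of the augmin complex on the spindle (0.50, adjusted p = 0.025), where 3.48% of all genes did. In the interaction HAUS4 was the 1 that passed as higher (0.70, adjusted p = 0.0335), where 1.91% of all genes did, and 3 passed as lower, NCAPD3, CENPM and CENPO, where 0.974% of all genes did.

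The 34 DNA replication genes, which act in S phase, were counted likewise. All 34 were lower in A375 cells at 48 h (median -2.19), in Colo800 (median -2.50) and in UACC62 (median -2.26), where 25.6%, 37.3% and 29.6% of all genes were. In H3122 26 were lower (median -0.36), where 24.0% of all genes were. In A375 tumours 33 were lower (median -1.31), where 34.0% of all genes were, with the licensing factor CDT1 higher (0.32). In tumours of A375R alone, 6 of the 34 rose under vemurafenib, where 0.305% of all genes did, among them the helicase subunits MCM6 (0.91, adjusted p = 0.0196) and MCM5 (0.71, adjusted p = 0.036), and 0 passed in mixed tumours, where 3.48% of all genes did.

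The 24 genes counted for the regulators of these promoters were the MuvB, MYB, E2F and RB families, cell cycle inhibitors and the cyclins CCND1, CCNE1 and CCNE2. Of these, 16 were lower and 1 higher in A375 cells at 48 h, where 25.6% of all genes were lower and 24.3% higher. In Colo800 19 were lower and 3 higher (all genes 37.3% and 36.0%), and in UACC62 13 and 3 (29.6% and 26.9%). The counts were 9 and 4 in H3122 (24.0% and 22.1%) and 17 and 2 in A375 tumours (34.0% and 34.2%). MYBL2, the B-MYB protein that joins MuvB in G2, fell by 3.51 in A375 (adjusted p = 8e-07), by 7.54 in UACC62 (adjusted p = 4.73e-08) and by 2.02 in A375 tumours. RBL2, which encodes the repressor p130, rose in A375 cells at 48 h (0.54), in H3122 cells (0.53) and in A375 tumours (0.31), and did not pass in Colo800 (0.09) or UACC62 (-0.11). CDKN1B, which encodes the CDK inhibitor p27, rose in Colo800 (1.14), UACC62 (1.93) and H3122 (0.24). In A375 cells at 48 h CDKN1B lay the other way without passing, with a mean of 943 ± 45.4, against 1060.2 ± 43.1 in vehicle cells (SD, n = 3 each, log2 change -0.17, adjusted p = 0.28 by limma). It did not pass in A375 tumours (0.17) or in tumours of A375R alone (-0.42) or mixed (-0.09) either. CDKN1A, which encodes the inhibitor p21, averaged 356 in treated Colo800 cells, against 1915.6 in vehicle, and 927 in treated H3122 cells, against 2062.6. It averaged 12322.9 in treated UACC62 cells, against 7673.0, and 2652.3 in A375 cells at 48 h, against 2441.7. In drug and vehicle tumours it averaged 1038.8 and 949 for A375, 6439.8 and 9246.9 for A375R alone, and 7985.6 and 10007.6 for mixed. In tumours of A375R alone, E2F2 (0.97, adjusted p = 0.0365) and E2F8 (0.77, adjusted p = 0.0483) rose, and in the interaction E2F8 passed as lower (-0.96, adjusted p = 0.0456).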

How the data were processed

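The 6 deposited tables give a normalised value for each gene symbol in each library. It is a signal, the reads of a gene over the size factor of its library, as the authors computed it. Per the submitters' processing notes, which give no roles, the tools were STAR 2.3.0e, HTSeq 0.5.4 and DESeq 1.18.0, with builds hg19 and mm9. The library kit does not mark strand, per the labels' protocols, so overlapping antisense genes are uncertain. All values of a library were multiples of 1 step (100% whole within a tolerance of 0.1), which returned the reads. Replicates of a group differed beyond sampling noise, at a chi-square per degree of freedom of 1.29 to 49.9.

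Genes with a table mean of at least 10 were tested with limma 3.58.1 in R 4.3.3 on log2(value + 1), with a trend of variance on mean and 1 fit per table over all its groups. The p-values are two-sided, and calls are at a Benjamini-Hochberg adjusted p under 0.05. The scripts were tested on simulated data. Alternatives were pseudocounts of 0.5 and 5, no filter, a filter at 50, quantile normalisation, a replicate block, the 2 groups alone, each library left out, and edgeR 4.0.16 and DESeq2 1.42.0 on recovered reads.

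Same-number A375 culture libraries deviated together, with correlations of 0.567, 0.31 and 0.566 between 6 h and vehicle and 0.436, 0.197 and 0.41 between 48 h and 6 h, so those numbers pair. Between 48 h and vehicle they were 0.402, 0.028 and 0.32. The minimum set for pairing was 0.1, which only replicate 2 missed here, and the other tables fell short of it as well.

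The members, lists and rules were chosen with earlier results of these data known. All 45 members are accounted for. Values per library are given for many, but not all, of the members a result turns on, the 2 largest and 2 smallest changes, and members against the majority. From other lists, counts and members with the smallest adjusted p or against the majority are named, fewer than the rule takes. Promoters are from RefSeq on GRCh38.p14.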

Additional observations from a re-analysis of the deposited data

Results flagged for a closer look

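Among 90 groups of 4 tumour libraries (45 genes in the vemurafenib and vehicle groups of A375 tumours), 3 held a library far from the others by a gap test that chance alone meets in about 1 in 20 groups. BUB3 was highest in vemurafenib replicate 1, at 1927, with the other vemurafenib libraries between 1512 and 1569.6, and this is the library that overlaps the vehicle group. KIF2C, a microtubule-depolymerising kinesin, was highest in vemurafenib replicate 3, at 328, with the others between 256 and 264. KIF4A, a chromosome-associated kinesin, was lowest in vehicle replicate 1, at 289, with the others between 313 and 316. The drug response of SPC25 differed between A375R tumour kinds, by -0.81 for mixed minus alone (adjusted p = 0.0398, limma, over all genes of the table).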

How the results depend on the processing

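Of 8009 recomputed member values, 7873 stayed on their side of the threshold, 78 no longer passed, 57 newly passed and 1 called value changed sign. Of the 7873, 162 changed sign, all values that passed in neither fit, 52 of them in A375 at 6 h and 47 in mixed A375R tumours. The called one was ASPM in H3122 cells, -0.25 without H3122 vehicle replicate 2 and 0.27 without H3122 vehicle replicate 1, where 0.01 was given. Every call in A375 at 48 h, Colo800, UACC62 and the A375 tumours held under all alternatives run. In Colo800, UACC62 and H3122, leaving out a library leaves 1 in its group, which is assumed to vary like the other group. In H3122 the 34 calls became 18 to 36 (the 36 with 2 higher) when a library was left out, 24 lower and 2 higher under quantile normalisation, 27 without a filter, 29 with DESeq2, 26 with the replicate block and 38 (1 of them higher) with the crossed replicate pairing, added after seeing the data because same numbers correlated at -0.209. In tumours of A375R alone the count of 1 became 0 without a filter, 12 with DESeq2, 3 with the 2 groups alone, 6 with the replicate block and 0 to 13 with a library left out. For mixed against alone tumours the 0 calls under vemurafenib became 1 with DESeq2, 1 with the replicate block and 0 to 1 with a library left out, and the 0 calls under vehicle became 1 with the replicate block and 0 to 1 with a library left out. The interaction's count of 1 became 0 without a filter, 0 under quantile normalisation, 2 with DESeq2, 3 with the replicate block and 0 to 5 with a library left out. The cause of these changes was not tested. The replicate block also called CDC25B in A375 cells at 48 h against 6 h, and A375R numbers did not pair the libraries. Depth limited the UACC62 falls of members with 3 reads or fewer.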
